A study of Bos taurus with 24 samples.

Results

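The genes of fatty acid synthesis and lipid droplets were examined in single early bovine blastocysts. The members were a list of 10 symbols, namely ACLY, ACACA, FASN, SCD, ELOVL6, FADS1, FADS2, PLIN2, PLIN3 and DGAT1. Of these, 8 were found by symbol among the 24621 genes counted, and PLIN3 was found under its older symbol M6PRBP1. ELOVL6 was not matched to a row and was not analysed here, so 9 genes are described.

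The study sequenced the polyadenylated RNA of 24 single Holstein blastocysts of good quality, and each embryo was 1 replicate. Of these, 8 embryos were derived in vivo (5 males and 3 females), collected a week after insemination from 3 superovulated cows. Another 8 embryos were produced in vitro with fetal bovine serum in the media for oocyte maturation and embryo culture (3 males and 5 females). The remaining 8 embryos were produced in vitro in serum-free medium, with epidermal growth factor during maturation and with bovine serum albumin and insulin-transferrin-selenium during culture (5 males and 3 females). Semen of the same bull was used throughout, the oocytes for in vitro production came from slaughterhouse ovaries, and the in vitro embryos came from 3 separate experiments. Embryos produced in vitro were harvested a week after insemination or a day earlier. Embryos are named as in the sample labels, with A for in vivo, B for serum-containing and C for serum-free embryos. The labels do not tie an embryo to a cow, an experiment or a sequencing lane. These could therefore not be told apart from single embryos. In the comparisons with in vivo derived embryos, oocyte source, day of collection and development in vivo or in vitro cannot be told apart. Between the in vitro conditions, serum, epidermal growth factor, albumin, insulin-transferrin-selenium and the maturation or culture step cannot be told apart.

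A cell makes fatty acids from citrate. ACLY splits citrate into acetyl-CoA, ACACA carboxylates acetyl-CoA to malonyl-CoA, and FASN assembles palmitate, which ELOVL6 can lengthen. SCD then introduces a double bond into saturated fatty acids, whereas FADS2 and FADS1 act in sequence on polyunsaturated ones. DGAT1 joins the last fatty acid to make triglyceride, which is stored in lipid droplets coated by perilipins such as PLIN2 and PLIN3. Bovine oocytes and embryos are rich in lipid droplets, and culture with serum is known for embryos with more of them that withstand freezing less well.

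Exon counts per embryo were between 3253051 and 9000447, with a median of 4454031. Values are given in CPM, the counts of a gene scaled to the size of its library, after TMM scaling, which removes differences in library size and composition but not in gene length, so levels are compared between embryos and not between genes. A gene was tested where every embryo of at least 1 of the conditions compared had 15 counts or more. A call of differential expression needed both an adjusted p below 0.05 in edgeR's quasi-likelihood test and a fold change of at least 2. In RNA of whole embryos, fewer cells of a type and less RNA per cell cannot be told apart. Of the trophectoderm markers, KRT8 and KRT18 were abundant in vivo, at means of 9018 and 1832 CPM, whereas CDX2 and ELF5 were near 0 in every condition, at means of at most 1.25 CPM. The summed CPM of the 11 trophectoderm markers was 7537 to 14760 in vivo, 330.3 to 5131 in serum-containing medium and 5002 to 28870 in serum-free medium.

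**Figure D1:**
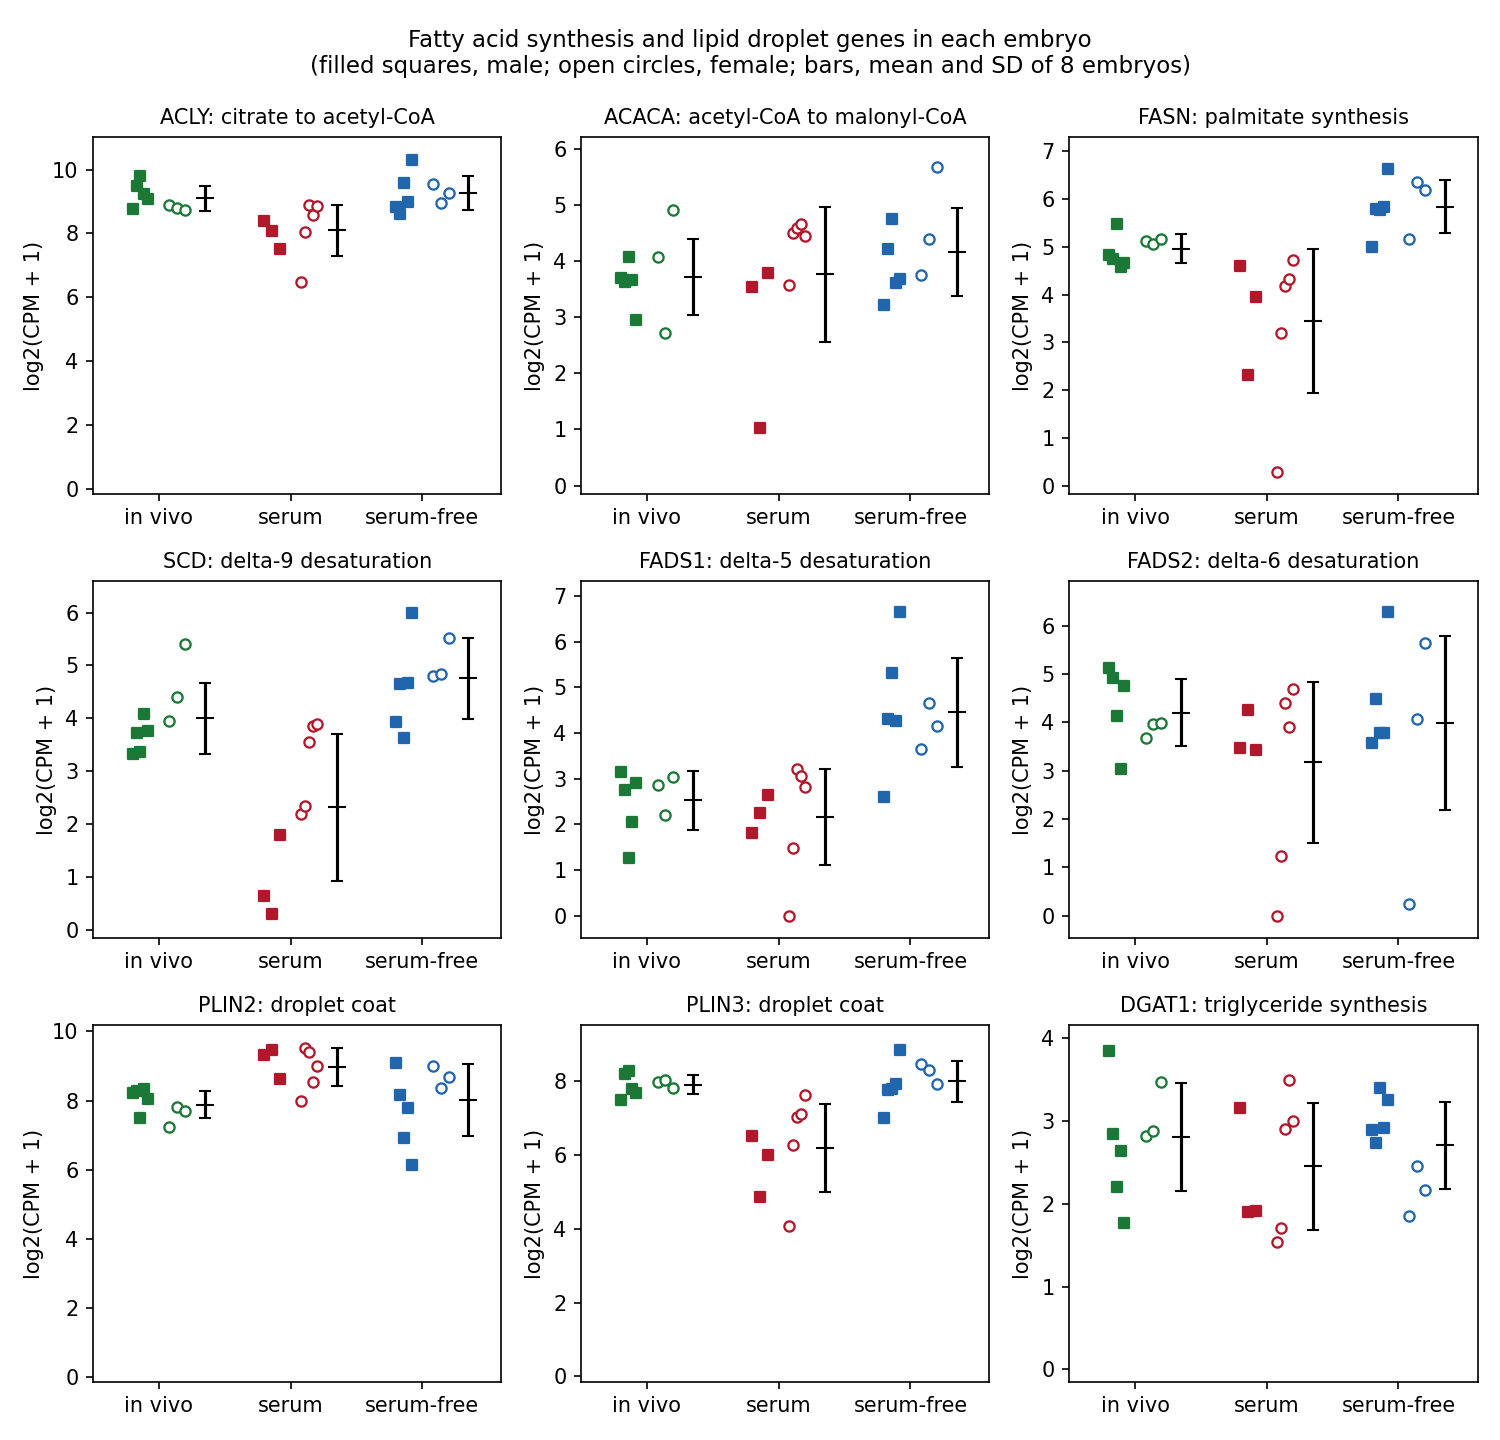
Level of each of the 9 measured genes in each of the 24 embryos, as log2(CPM + 1), by culture condition; squares are males, circles are females, and the bars give the mean and SD of the 8 embryos. FASN lies between 31.0 and 97.5 CPM in serum-free medium, above all 8 embryos of serum-containing medium, whereas PLIN2 reaches its highest level, 734 CPM, in serum-containing medium.

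Of the enzymes of palmitate synthesis, FASN and ACLY had their lowest medians in serum-containing medium and their highest in serum-free medium. FASN was at 22.8 CPM in the lowest, 30.0 CPM in the median and 43.4 CPM in the highest in vivo derived embryo. In serum-containing medium the corresponding values were 0.237, 15.8 and 25.5 CPM, and in serum-free medium 31.0, 55.2 and 97.5 CPM. The 2 in vitro conditions did not overlap, since the lowest serum-free embryo, C1, was above the highest serum embryo, B8. The lowest FASN value came from embryo B2, in which a single count was found, and the highest from C7.

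ACLY, the enzyme upstream, followed the same order at closer distances. It ranged from 422 to 889 CPM in vivo (median 505 CPM), from 89.0 to 474 CPM in serum-containing medium (median 302 CPM) and from 394 to 1263 CPM in serum-free medium (median 565 CPM). All 3 conditions overlapped, and B2 and C7 were again the lowest and the highest of the in vitro embryos. ACACA, the first committed enzyme of the pathway, ranged from 5.63 to 29.2 CPM in vivo, from 1.03 to 24.5 CPM in serum-containing medium and from 8.31 to 50.6 CPM in serum-free medium, with medians of 11.8, 16.8 and 15.1 CPM. Its conditions overlapped over most of their ranges.

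Among the desaturases, SCD ranged from 8.97 to 41.2 CPM in vivo (median 13.5 CPM), from 0.228 to 13.8 CPM in serum-containing medium (median 3.82 CPM) and from 11.4 to 62.9 CPM in serum-free medium (median 25.6 CPM). The serum embryos separated by sex. The 3 males B1, B5 and B7 had 0.564, 0.228 and 2.46 CPM, from 2 to 8 counts each. The 5 females B2, B3, B4, B6 and B8 had 3.56, 4.07, 10.7, 13.4 and 13.8 CPM. These males and B2 also had the fewest genes with a count, at 12390, 11735, 12267 and 12348. Every other embryo of the series had 12943 or more. The part of this in the SCD difference was not tested. FADS1 was low in vivo, at 1.39 to 7.89 CPM (median 6.03 CPM), and in serum-containing medium, at 0 to 8.23 CPM (median 4.49 CPM). In serum-free medium it ranged from 5.10 to 99.1 CPM (median 18.5 CPM), and 7 of these 8 embryos were above every embryo of the other conditions, C1 being the exception.

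FADS2 had wide ranges in vitro. It ranged from 7.22 to 34.0 CPM in vivo, from 0 to 24.7 CPM in serum-containing medium and from 0.173 to 77.0 CPM in serum-free medium, with medians of 15.7, 12.1 and 14.3 CPM. Embryo B2 had no count of FADS1 or FADS2, and C3 had 1 count of FADS2. At the depth of B2, no count allows up to 0.658 CPM before TMM scaling for each gene (3 counts, counting error only). In the RefSeq annotation of the bovine assembly ARS-UCD2.0, which is not the assembly of the counts, the spans of FADS1 and FADS2 overlap, and the library kit does not keep the strand. Reads of the pair may therefore not be separable where their exons meet.

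The 2 perilipins had opposite orders of medians with respect to serum. PLIN2, which coats and stabilizes droplets, ranged from 149 to 319 CPM in vivo (median 243 CPM), from 252 to 734 CPM in serum-containing medium (median 571 CPM) and from 69.6 to 548 CPM in serum-free medium (median 307 CPM). PLIN3, which binds young droplets from the cytosol, ranged from 179 to 307 CPM in vivo (median 236 CPM), from 15.9 to 195 CPM in serum-containing medium (median 82.6 CPM) and from 127 to 453 CPM in serum-free medium (median 240 CPM). For PLIN2 only B2 among the serum embryos lay within the in vivo range, and for PLIN3 only B8 did. DGAT1, which completes triglyceride synthesis, was low throughout, at 2.41 to 13.3 CPM in vivo, 1.90 to 10.3 CPM in serum-containing medium and 2.59 to 9.48 CPM in serum-free medium.

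Compared with embryos produced in serum-containing medium, in vivo derived embryos had less PLIN2 and more PLIN3. PLIN2 was 242 ± 62.9 CPM in vivo and 534 ± 181 CPM in serum-containing medium (mean ± SD, n = 8 each). This difference gave a log2 fold change of in vivo over serum of -1.14 (SE 0.22, adjusted p = 0.00123). PLIN3 was 241 ± 43.8 CPM in vivo and 91.9 ± 60.0 CPM in serum-containing medium, a log2 fold change of 1.39 (SE 0.36, adjusted p = 0.0077). Both differences exceeded the spread between embryos and were called in every fit that left out 1 of the 16 embryos. Of the 9 genes, 7 were tested, 2 were called, and none had conditions without overlap, where 13.8% of the 7339 genes tested were called (7.34% higher in vivo and 6.43% higher in serum-containing medium) and 7.11% had conditions without overlap. FADS1 and DGAT1 did not reach 15 counts in every embryo of either condition and were not tested, and FASN, SCD, FADS2 and ACACA passed only through the in vivo derived embryos.

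The synthesis enzymes did not pass both thresholds in this comparison. ACLY was 565 ± 165 CPM in vivo and 306 ± 133 CPM in serum-containing medium, a 1.85-fold difference (log2 fold change 0.88, SE 0.27, adjusted p = 0.0185) that stayed under the limit of 2-fold. FASN, at 30.6 ± 6.86 CPM against 13.9 ± 9.05 CPM (log2 fold change 1.14, SE 0.47, adjusted p = 0.0732), and SCD, at 16.9 ± 10.5 CPM against 6.10 ± 5.64 CPM (1.44, SE 0.59, adjusted p = 0.0721), passed the fold limit and missed the adjusted p. FADS2 (log2 fold change 0.64, SE 0.57, adjusted p = 0.413) and ACACA (-0.22, SE 0.45, adjusted p = 0.742) differed by less than the spread between embryos. The median log2 fold change of the 7 tested genes was 0.88, beside -0.01 over all genes tested. At an unadjusted p below 0.05 there were 5 of 7 genes, beside 41.2% of all genes tested. The calls of FASN and SCD depended on the test, since edgeR's exact test, DESeq2 and a fit over all 24 embryos called both, which makes 4 genes. With sex in the model, SCD had a log2 fold change of 2.34 and was called (adjusted p = 0.00418).

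**Figure D2:**
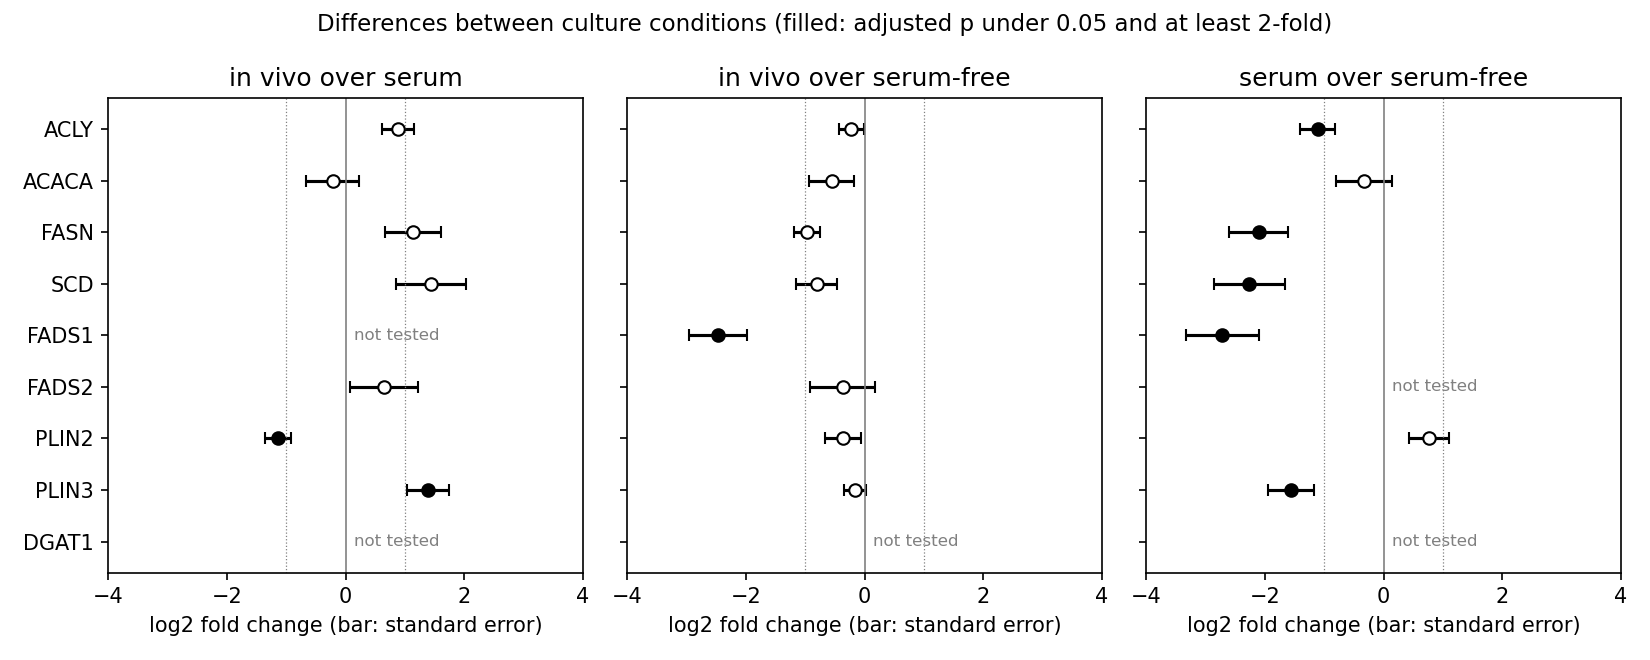
Log2 fold change of each measured gene in the 3 comparisons of culture conditions, with bars for the standard error; filled points passed an adjusted p of 0.05 and a fold change of 2, and dotted lines mark that fold change. PLIN2 and PLIN3 lie on opposite sides of 0 in the left panel, at -1.14 and 1.39, and 5 genes lie at -1.11 or below in the right panel.

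Compared with embryos produced in serum-free medium, a single gene of the list was called in in vivo derived embryos. FADS1, the delta-5 desaturase, was 5.22 ± 2.25 CPM in vivo and 29.1 ± 30.0 CPM in serum-free medium (n = 8 each), a 5.54-fold difference (log2 fold change of in vivo over serum-free -2.47, SE 0.49, adjusted p = 0.00474). It passed the filter only through the serum-free embryos. Without C7, the embryo with the highest value, the log2 fold change was -1.88 (adjusted p = 0.00716). FASN was 30.6 ± 6.86 CPM in vivo and 59.8 ± 22.5 CPM in serum-free medium, and its 1.96-fold difference (log2 fold change -0.97, SE 0.22, adjusted p = 0.015) ended just under the limit of 2-fold. It was called when any of the embryos A3, A9, C1 or C3 was left out, with log2 fold changes of -1.06, -1.02, -1.08 and -1.07.

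The other 6 tested genes were not called. SCD was 16.9 ± 10.5 CPM in vivo and 29.5 ± 16.8 CPM in serum-free medium (log2 fold change -0.81, SE 0.35, adjusted p = 0.178), and without A9, the highest in vivo derived embryo, it was called at -1.16 (adjusted p = 0.044), which with FASN makes 3 genes. ACACA (log2 fold change -0.55), FADS2 (-0.37), PLIN2 (-0.37), ACLY (-0.22) and PLIN3 (-0.16) had adjusted p-values from 0.426 to 0.752. The single call among 8 tested genes stood beside 2.2% of the 7314 genes tested, of which 1.61% were called higher in serum-free medium, and beside 0.889% of genes without overlap there was none of the 8. The median log2 fold change of the 8 genes was -0.46, and all 8 were below 0, where the median over all genes tested was -0.003.

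Between the in vitro conditions, which the study did not compare directly, 5 of 7 tested genes were called, all of them lower in serum-containing than in serum-free medium. In this comparison, 8.91% of the 7181 genes tested were called, 5.36% of the genes tested were called higher in serum-free medium, and 2.4% had conditions without overlap. FASN was 13.9 ± 9.05 CPM in serum-containing and 59.8 ± 22.5 CPM in serum-free medium (n = 8 each), a difference of 4.31-fold without overlap (log2 fold change of serum over serum-free -2.11, SE 0.49, adjusted p = 0.011). ACLY differed 2.16-fold (log2 fold change -1.11, SE 0.29, adjusted p = 0.0194). Both lipogenic enzymes were thus lower in serum-containing medium, whereas ACACA between them in the pathway was not called (log2 fold change -0.33, SE 0.47, adjusted p = 0.651).

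SCD, the delta-9 desaturase, differed 4.80-fold between the in vitro conditions (log2 fold change -2.26, SE 0.60, adjusted p = 0.0191) and FADS1 6.59-fold (-2.72, SE 0.62, adjusted p = 0.00982). With sex in the model, SCD had a log2 fold change of -3.10, and without C7 that of FADS1 was -2.09 (adjusted p = 0.0285). PLIN3 differed 2.94-fold (log2 fold change -1.56, SE 0.39, adjusted p = 0.0141). PLIN2 had the opposite sign and was not called (log2 fold change 0.77, SE 0.34, adjusted p = 0.122). FASN, SCD, FADS1 and ACACA passed the filter only through the serum-free embryos, and FADS2 and DGAT1 were not tested. ACLY lost its call without B2 (log2 fold change -0.95) and without C7 (-0.88), which leaves 4 genes. The 3 comparisons share embryos, so their values are not independent of each other. With every gene tested that had 1 count in any embryo, all 9 genes entered, and 2, 1 and 5 of them were called in the 3 comparisons, beside 7.32%, 0.772% and 2.97% of all genes.

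The ratio of PLIN2 to PLIN3 counts within an embryo needs no scaling between embryos. In vivo it was 0.580 to 1.65, with a median of 0.993. In serum-containing medium it was 2.61 to 25.0, with a median of 6.63, so that every serum embryo was above every in vivo derived embryo. Both genes were already called in opposite directions in these embryos, and the share of other gene pairs so separated was not counted. In serum-free medium it was 0.154 to 4.33, with a median of 1.19, and C7 and C1 were the extremes. The ratio rests on 67 to 2025 counts of PLIN3 per embryo. The ratio of FADS1 to FADS2 counts was 0.0843 to 0.531 in vivo (median 0.248), 0.208 to 1.33 in the 7 serum embryos with counts (median 0.411) and 0.341 to 67 in serum-free medium (median 1.35). The median ratio of SCD to FASN counts was 0.494 in vivo, 0.521 with serum and 0.453 in serum-free medium, but the serum embryos separated by sex. The 3 serum males had ratios of 0.0244, 0.0571 and 0.170, from 2 to 8 counts of SCD, below every in vivo derived and serum-free embryo, whose lowest were 0.216 and 0.215. The 5 serum females had 0.5 to 15, the highest being B2 with 1 count of FASN. The 3 serum males and B2 were also the embryos with the fewest genes found, and the part of this in the ratio was not tested.

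**Figure D3:**
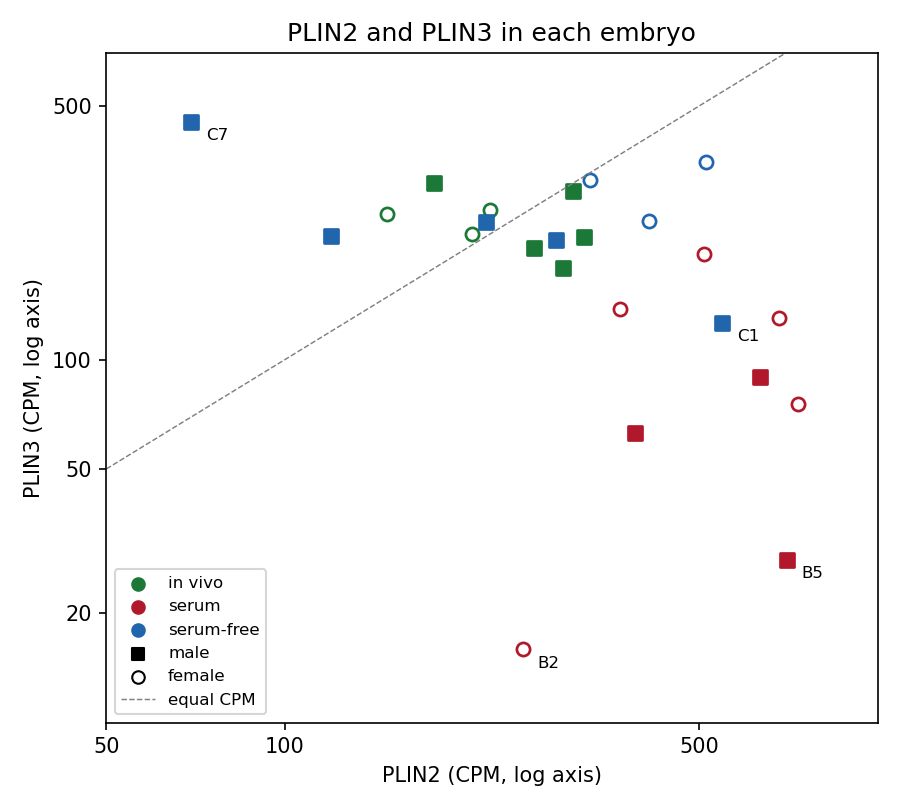
PLIN3 against PLIN2 in each of the 24 embryos, both in CPM on log axes, coloured by culture condition, with squares for males and circles for females; the dashed line marks equal CPM. All 8 serum embryos lie below the line, with B5 and B2 farthest at count ratios of 25.0 and 15.9, and C7 lies farthest above it.

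Within conditions, embryos differed more in vitro than in vivo, as they did for most genes. The coefficient of variation was above the in vivo value for 8 of the 9 genes in serum-containing medium and for 7 in serum-free medium, beside 82.9% and 68.8% of 7557 genes. FASN varied by 22.4% in vivo, 64.9% with serum and 37.6% in serum-free medium. Single embryos recurred at the ends of the ranges, since B2 was the lowest serum embryo for 7 of the 9 genes and C7 the highest serum-free embryo for 6. These embryos also had the lowest and the highest summed trophectoderm markers of the series, at 330.3 and 28870 CPM. On average KRT8 alone makes up most of this sum, at means of 9018 CPM in vivo, 1087 CPM with serum and 8919 CPM in serum-free medium.

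Pairs of genes with a shared role were compared across the 8 embryos of a condition, in 12 relations with exact permutation tests. FADS1 and FADS2 in serum-containing medium gave the only relation past the adjusted threshold (Pearson r = 0.910, exact permutation p = 0.00285, adjusted p = 0.0342; Spearman rho = 0.786, p = 0.0279, adjusted p = 0.168). It rested on 2 embryos, since r was 0.491 without the embryos farthest from the median of FADS1, and shared reads of the pair were not tested. PLIN2 and PLIN3 gave no relation past the threshold within a condition, with r of -0.42 in vivo, 0.35 with serum and -0.48 in serum-free medium (smallest exact permutation p = 0.233, adjusted p = 0.399).

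The study also asked whether male and female embryos respond differently to culture. In males, 4 of 7 tested genes were called between in vivo derived and serum embryos, beside 13.3% of 7762 genes. SCD was 11.8 ± 2.85 CPM in 5 in vivo derived males and 1.08 ± 1.20 CPM in 3 serum males, a fitted log2 fold change of 3.58 (SE 0.75, adjusted p = 0.00758). SCD passed the filter only through the in vivo derived males, and B1 and B5 had 2 counts each, so that the size of this difference is uncertain. The 3 serum males were also among the embryos with the fewest genes found. PLIN3 (log2 fold change 2.00, SE 0.35, adjusted p = 0.00363), ACLY (1.28, SE 0.27, adjusted p = 0.00729) and PLIN2 (-1.08, SE 0.23, adjusted p = 0.00926) were called too. None of these 4 genes overlapped between in vivo derived and serum males, as was so for 26.1% of all genes.

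In females, none of 9 tested genes was called between in vivo derived and serum embryos by edgeR's quasi-likelihood test, beside 0.418% of 8138 genes. At an unadjusted p below 0.05 there were 2, beside 21.1% of all genes, namely SCD (log2 fold change 1.44, SE 0.56, adjusted p = 0.193) and PLIN2 (-1.43, SE 0.36, adjusted p = 0.101), and the exact test and DESeq2 each called PLIN2. Without B2, the quasi-likelihood test called PLIN2 as well. FASN, SCD, PLIN2 and PLIN3 did not overlap between the conditions, beside 22.8% of all genes. FASN passed the filter only through the in vivo derived females. The difference between the sexes was not past the threshold for any gene, of the list or of the 8446 tested. For SCD the log2 fold change of in vivo over serum was larger in males by 2.09 (SE 0.94, unadjusted p = 0.0405, adjusted p = 0.948).

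Between in vivo derived and serum-free males, FADS1 was the only one of 9 tested genes called, beside 0.966% of 7662 genes, with 4.94 ± 2.62 CPM against 36.0 ± 37.3 CPM (log2 fold change -2.88, SE 0.67, adjusted p = 0.0452), and it passed the filter only through the serum-free males. The call was lost without any 1 of 9 of the 10 males, and without C1 both FASN and FADS1 were called. In females none of 9 tested genes was called by the quasi-likelihood test, beside 0.304% of 8211 genes. At an unadjusted p below 0.05 there were 4 genes, beside 14% of all genes, and the exact test and DESeq2 each called PLIN2. PLIN2 was 149, 222 and 207 CPM in the in vivo derived females A6, A7 and A9, and 513, 327 and 411 CPM in the serum-free females C3, C8 and C10. The groups did not overlap (log2 fold change -1.11, SE 0.22, adjusted p = 0.0788), as for 4 of the 9 genes and 21% of all genes, whereas in males PLIN2 had a log2 fold change of 0.10 (SE 0.40, adjusted p = 0.936). The difference between the sexes was 1.22 (SE 0.60, unadjusted p = 0.0566, adjusted p = 0.757). Over both in vitro conditions, none of 18 such tests passed with edgeR's quasi-likelihood test or with DESeq2. Of all genes, 0 of 8446 passed in the quasi-likelihood test of serum-containing medium and 0 of 8425 in that of serum-free medium. Among the 18 tests, 1 had an unadjusted p below 0.05, beside 5.16% and 6.59% of all genes in the tests of serum-containing and serum-free medium.

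Directly between males and females, none of the tested genes was called in vivo (9 tested), in serum-containing medium (7 tested) or in serum-free medium (9 tested) by the quasi-likelihood test, beside 0.653%, 0.173% and 0.139% of all genes. At an unadjusted p below 0.05 there were 3, 1 and 1 genes, beside 13.5%, 6.24% and 8.01% of all genes. The exact test called none, and DESeq2 called 1, SCD in serum-containing medium. There, SCD was lower in males (log2 fold change of male over female -3.21, SE 0.90, adjusted p = 0.407), and the sexes did not overlap, as in 6.07% of all genes. In serum-free medium DGAT1 was 7.31 ± 1.59 CPM in males and 3.51 ± 0.932 CPM in females without overlap (log2 fold change 1.06, SE 0.47, adjusted p = 0.61), as in 6.73% of all genes. In these tests SCD passed the filter only through the serum females and DGAT1 only through the serum-free males, the sex with more of it each time. In vivo, SCD was at 11.8 ± 2.85 CPM in males and 25.2 ± 14.1 CPM in females (log2 fold change -1.10, SE 0.38, adjusted p = 0.213), ACLY had a log2 fold change of 0.51 (adjusted p = 0.243) and PLIN2 of 0.50 (adjusted p = 0.288).

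The wider pathway was followed in 6 lists of further genes. Of the other elongation and desaturation enzymes, 4 of 10 tested were called between in vivo derived and serum embryos, all higher in vivo, beside 7.34% of all genes. ELOVL1, an elongase of very long chains, was 59.0 ± 7.83 CPM in vivo and 26.7 ± 10.9 CPM in serum-containing medium without overlap (log2 fold change 1.14, SE 0.22, adjusted p = 0.00127). CYB5R3, which passes electrons to the desaturases through cytochrome b5, had a log2 fold change of 1.79 (SE 0.35, adjusted p = 0.00131), also without overlap. FADS3, a neighbour of FADS2, and PTPLB, a dehydratase of the elongation cycle, had log2 fold changes of 1.79 (adjusted p = 0.00542) and 1.32 (adjusted p = 0.00649). FADS3 and PTPLB passed the filter only through the in vivo derived embryos. The median log2 fold change of the list was 0.64, beside -0.01 over all genes.

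Against serum-free embryos, none of 11 tested genes of this list was called in in vivo derived embryos by edgeR's quasi-likelihood test, and 2 had an unadjusted p below 0.05. Of all genes, 2.2% were called and 21.5% had an unadjusted p below 0.05 in this comparison. Between the in vitro conditions, 3 of 11 were called, all lower in serum-containing medium, beside 5.36% of all genes, namely FADS3 (log2 fold change -2.28, adjusted p = 0.0111), ELOVL1 (-2.04, adjusted p = 0.00236) and CYB5R3 (4.00-fold lower, adjusted p = 0.00481). ELOVL1 and CYB5R3 did not overlap between these conditions, and FADS3 passed the filter only through the serum-free embryos. These 3 genes were thus called lower in serum-containing medium than in either other condition, in comparisons that share the serum embryos, as was PLIN3.

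The regulators of lipogenesis gave no call, with 7, 7 and 5 genes tested in the 3 comparisons and 4, 0 and 1 at an unadjusted p below 0.05 in edgeR's quasi-likelihood test, beside 41.2%, 21.5% and 33.1% of all genes. Of all genes, 13.8%, 2.2% and 8.91% were called in these comparisons. SREBF1, which encodes the transcription factor of lipogenic genes, was 8.07 ± 2.28 CPM in vivo, 3.28 ± 2.58 CPM in serum-containing medium and 5.71 ± 4.15 CPM in serum-free medium. Its log2 fold change of in vivo over serum was 1.29 (SE 0.56, adjusted p = 0.0912). INSIG1, which helps to retain this factor in the endoplasmic reticulum, was not tested, at means of 2.95, 4.18 and 16.4 CPM. Of the other triglyceride synthesis enzymes, none of 6 was called in any comparison, with 1, 0 and 1 at an unadjusted p below 0.05. The shares of all genes were those given for the regulators. DGAT2, the second enzyme of the last step, was not tested, at means of 10.1, 5.61 and 3.72 CPM.

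For the lists that follow, 13.8% of all genes were called between in vivo and serum, 2.2% between in vivo and serum-free and 8.91% between the in vitro conditions. At an unadjusted p below 0.05 the shares were 41.2%, 21.5% and 33.1%. Of the other lipid droplet proteins and lipases, none of 6 was called against either in vitro condition, with 1 and 2 at an unadjusted p below 0.05. Between the in vitro conditions HSD17B11, a droplet-associated dehydrogenase, was the only one of 5 called, at 230.4 ± 82.7 CPM with serum and 607 ± 359 CPM in serum-free medium (log2 fold change -1.40, SE 0.29, adjusted p = 0.00681). Of the genes that supply acetyl-CoA, citrate and NADPH, none of 4 was called against either in vitro condition, with 0 and 2 at an unadjusted p below 0.05. Between the in vitro conditions ACO1, the cytosolic aconitase, was the only one of 4 called (log2 fold change -1.15, SE 0.28, adjusted p = 0.0123).

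Of the genes of fatty acid uptake, binding and activation, FABP5, a fatty acid binding protein, was the only one of 10 called against each in vitro condition, higher in vitro both times. It was 9.07 ± 7.60 CPM in vivo, 60.1 ± 100.4 CPM in serum-containing medium (log2 fold change -2.73, SE 0.75, adjusted p = 0.0115) and 47.2 ± 42.0 CPM in serum-free medium (-2.37, SE 0.51, adjusted p = 0.00974). FABP5 passed the filter only through the in vitro embryos, and these comparisons share the in vivo derived embryos. Between the in vitro conditions ACSL6, an acyl-CoA synthetase, was the only one of 9 called (log2 fold change -1.34, SE 0.40, adjusted p = 0.0303).

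**Figure D4:**
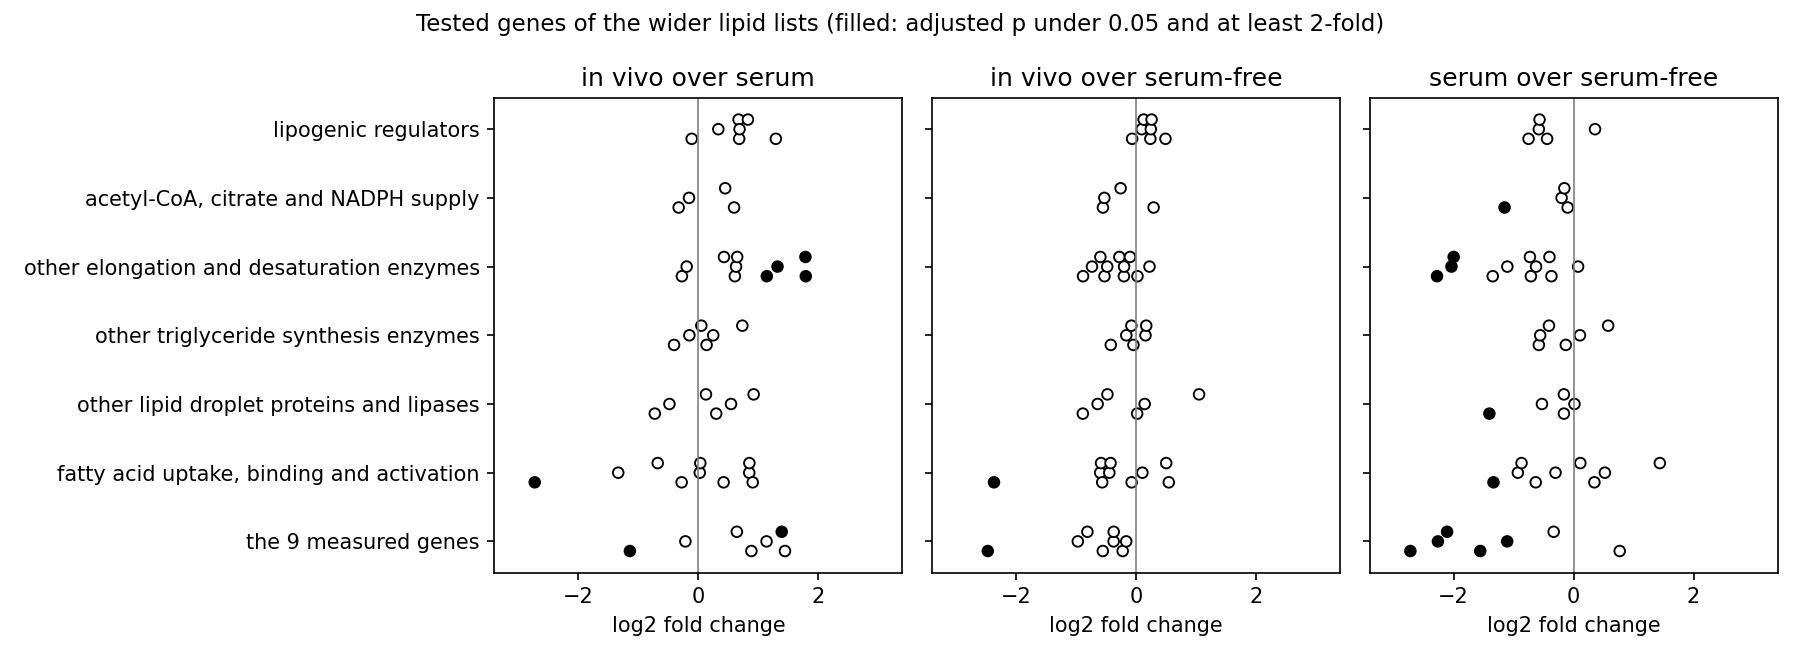
Log2 fold changes of the tested genes of 6 wider lipid lists and of the 9 measured genes, 1 point a gene, in the 3 comparisons of culture conditions; filled points passed an adjusted p of 0.05 and a fold change of 2, and the vertical offset in a row only separates points. The filled points of elongation and desaturation enzymes lie above 0 in the left panel (4 of 10) and below 0 in the right panel (3 of 11).

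Some markers of cell lineages also differed between culture conditions, in both directions. Of the trophectoderm markers, 6 of 8 tested (GATA2, GATA3, KRT8, KRT18, KRT19 and IFNT) were higher in vivo than in serum-containing medium, beside 7.34% of all genes, and the same 6 were higher in serum-free than in serum-containing medium, beside 5.36%. GATA2, GATA3, KRT19 and IFNT passed the filter only through the condition where they were higher. The other 2 tested markers had the opposite sign and were not called, with log2 fold changes of in vivo over serum of -0.71 for TEAD4 (adjusted p = 0.105) and -0.32 for TFAP2C (adjusted p = 0.292). None of 8 was called between in vivo and serum-free, with none at an unadjusted p below 0.05. IFNT and the keratins have close copies in the genome, so their counts are less certain. The sums were 330.3 to 5131 CPM in serum-containing medium, and the highest, in B8, belonged to the embryo with the highest FASN, SCD and PLIN3 of that condition. B4, the highest of that condition for ACLY and FADS1, had a sum of 1213 CPM. Hypoblast markers summed to 4774 to 7477 CPM in vivo, 34.2 to 2957 CPM with serum and 3326 to 6022 CPM in serum-free medium. Of 4 tested, PDGFRA and FN1 were called higher in vivo than in serum-containing medium, beside 7.34% of all genes. PDGFRA was also called higher in vivo than in serum-free medium, beside 2.2% of all genes called in either direction. Inner cell mass markers summed to 683 to 927 CPM in vivo, 547 to 1149 CPM with serum and 537 to 841 CPM in serum-free medium. Of them, SOX2 was called higher in serum-containing medium than in vivo (log2 fold change of in vivo over serum -1.25, adjusted p = 0.0271). It was 1 of 4 tested, beside 6.43% of all genes. KLF4 was called higher in serum-containing than in serum-free medium (log2 fold change of serum over serum-free 1.12, adjusted p = 0.017). It was 1 of 5 tested, beside 8.91% of all genes called in either direction. POU5F1 had the opposite sign to SOX2 in vivo over serum and was not called (log2 fold change 0.55, adjusted p = 0.0979). DPPA3 was not called either (0.07, adjusted p = 0.79). The part of the lineage markers in the differences of the lipid genes was not tested.

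Most markers of other cells were low, but a few were not. ODF2, of the sperm markers, was at means of 75.5 CPM in vivo, 47.7 CPM with serum and 69.8 CPM in serum-free medium. Every other sperm marker had a mean of at most 3.20 CPM in each condition. CYP19A1 and STAR, of the cumulus and granulosa cell markers, were at means of 14.6 and 12.4 CPM in vivo. Cumulus and granulosa cell markers summed to 13.6 to 60.3 CPM in vivo, 4.90 to 64.3 CPM with serum and 7.60 to 37.0 CPM in serum-free medium, sperm markers to 53.4 to 112, 29.9 to 88.6 and 57.2 to 99.1 CPM, and blood and uterine cell markers to 2.28 to 14.5, 0.114 to 8.17 and 0 to 11.9 CPM. Most genes of these 3 lists were too low to be tested: of 9, 7 and 7 genes, at most 1, 1 and 0 were tested in a comparison of culture conditions, and none of those was called.

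The genes whose levels followed FASN most closely over the 24 embryos, among 6763 candidates, were CYSTM1 (Spearman rho 0.912), PGHS-2 (0.899), NDFIP2 (0.891), TGFBR3 (0.890) and UGCG (0.889). CYSTM1 was at means of 172 CPM in vivo, 46.8 CPM with serum and 238 CPM in serum-free medium, the order of FASN. PGHS-2, a prostaglandin synthase, was at means of 76.1, 10.7 and 406 CPM. Those that followed PLIN2 were GOT1 (0.824), CLNS1A (0.819), RRM2 (0.788), BAD (0.770) and ZNF200 (0.767), and GOT1, the cytosolic aspartate aminotransferase, was at means of 106, 175 and 156 CPM. These values are descriptions over embryos that share culture conditions, and the differences between conditions contribute to them. Within the 8 in vivo derived embryos alone, rho with FASN ran from 0.167 (NDFIP2) to 0.548 (UGCG), and rho with PLIN2 from 0.286 (ZNF200) to 0.690 (GOT1).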

How the data were processed

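Single blastocysts were sequenced after amplification of polyadenylated RNA. After trimming, the authors aligned the reads to the UMD 3.1 bovine assembly and deposited raw, unnormalized counts of uniquely mapped exon reads for each gene in each embryo. All 24 value columns were matched to embryos by name, and condition and sex came from the labels. There were fewer cows than in vivo derived embryos, so some of these embryos shared a dam, and the labels do not say which. Nothing says that in vitro embryos of a group came from separate dams. The p-values therefore measure the spread between the embryos sequenced. No libraries of a group agreed within sampling noise.

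Expression was compared in R 4.3.3 with edgeR 4.0.16 (TMM, quasi-likelihood test, fits of only the groups compared, Benjamini-Hochberg adjustment over all genes tested). The filter required 15 counts in every embryo of at least 1 group. Standard errors are approximate, from the estimate and its F statistic. CPM per embryo came from 1 TMM scaling of all 24 embryos. Correlations used log2 CPM with a pseudocount of 1 and two-sided exact permutation tests. Likeness used genes with a mean of at least 10 CPM tested between culture conditions.

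Members and lists were chosen with earlier results of these data known. Named beyond the members are, per list and comparison, the called genes with the largest change (at most 3 each way), the 5 genes most like FASN and PLIN2, and the markers. SREBF1, INSIG1 and DGAT2 were named after their values were seen. Alternatives were edgeR's exact test, which the study used, DESeq2 1.42.0, its size factors, other filters, sex as a covariate, a replicate block, a fit over all 24 embryos and leaving out each embryo. No batch was modelled. Exon lengths, coordinates and sequences were not used.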

Additional observations from a re-analysis of the deposited data

Results flagged for a closer look

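In 5 of 27 groups of 8 embryos (9 genes in 3 conditions), the highest embryo stood apart from the other 7 by a gap larger than Dixon's 95% critical value. That value flags about 1 in 20 groups only where values are normally distributed. Here it was applied to CPM without a log, so the share flagged by chance is not known. The 27 groups also reuse the same embryos. Embryo C7 of serum-free medium had 1263 CPM of ACLY, with the next embryo at 767 CPM, and 99.1 CPM of FADS1, with the next at 39.0 CPM. Embryo A9, derived in vivo, had 29.2 CPM of ACACA, with the next at 15.9 CPM, and 41.2 CPM of SCD, with the next at 20.0 CPM. Embryo C10 of serum-free medium had 50.6 CPM of ACACA, with the next at 25.9 CPM.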

How the results depend on the processing

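Of the 9 genes, the count called was 2 between in vivo and serum, 1 between in vivo and serum-free and 5 between serum and serum-free. With edgeR's exact test, DESeq2 and a fit over all 24 embryos, the first became 4, 4 and 4. With 15 counts required in every embryo of both groups, the second became 0, where FADS1 was not tested, and the third 2, where few genes were tested. The same replicate numbers did not pair embryos (correlations of deviations -0.14 to 0.085, none of 7 pairs over 0.1 in any pair of conditions, and 1, 0 and 0 embryos correlating best with their own number). With the number as a replicate block, the third count was 0 (28 genes called of all, beside 640) and that of in vivo against serum-free males 0; the cause was not tested. In females, the exact test and DESeq2 gave 1 between in vivo and serum and 1 between in vivo and serum-free, where 1 count in any embryo also gave 1. Between in vivo and serum-free males, the exact test and DESeq2 gave 2 and a fit over all 24 embryos 0. Between the sexes in serum-containing medium, DESeq2 and a fit over all 24 embryos gave 1. Leaving out each embryo gave 2 to 4, 1 to 3 and 4 to 5 genes in the comparisons of all embryos, 3 to 4 and 0 to 1 between in vivo and serum males and females, 0 to 2 and 0 between in vivo and serum-free males and females, and 0 in the others. The sign turned for ACACA between in vivo and serum with sex as a covariate (log2 fold change 0.12), for ACACA between serum and serum-free with the replicate block (0.22) and without C10 (range over embryos left out -0.45 to 0.035), and for FADS2 between in vivo and serum-free with the replicate block (0.44) and without C7 (range -0.58 to 0.12), none of them called. Over all genes, 15 counts in both groups gave 544, 94 and 366 calls, beside 1011, 161 and 640; for in vivo against serum-free the replicate block gave 86 and a fit over all 24 embryos 74. Leaving out 1 embryo took the calls between serum and serum-free down to 393. Of the fold changes under all alternatives, 152, 183 and 155 kept their direction and side of the threshold in the 3 comparisons, 11, 5 and 0 gained a call, and 0, 0 and 7 lost one. Counts of FADS1, DGAT1 and SCD near 15 limit what could be tested.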
